A study of Sus scrofa with 12 samples.

Results

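The immediate-early transcription factors FOS, FOSB, FOSL2, JUN, JUNB, EGR1, ATF3, NR4A1, IER2 and MYC were measured by RNA sequencing in the hearts of 6 Yorkshire pigs. The 10 genes were taken by symbol from the 35682 gene identifiers of the count tables, of which 15623 were paired with a symbol. All 10 were found, and all 10 passed the filter on low counts that left 13844 genes. Each animal gave 1 library from the border zone, the myocardium beside the infarct, and 1 from the remote zone. Libraries are named by region and by the animal number in their labels, 1022, 1322, 1323, 1623, 1922 and 3622.

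All animals carried the same injury, a balloon occlusion of the left anterior descending coronary artery for 60 min followed by reperfusion. They also received tacrolimus, mycophenolate mofetil and prednisolone from day 9. On day 14 the chest was opened, and the heart received either vascular organoids of human endothelial progenitor and smooth muscle cells, held in place with fibrin sealant, or the fibrin glue alone. Tissue was taken 28 days after that operation from pigs that had entered the study at 10 to 12 weeks of age. The labels do not say which of these 6 animals received organoids, so treated and control animals were not compared here, and every spread below holds both. The description of the RNA extraction speaks of border zone tissue for all samples, while the titles separate border from remote.

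Immediate-early genes are those that a cell transcribes within minutes of a stimulus without first making new protein. Growth factors, stretch, ischaemia and other stress reach them through kinase cascades that act on factors already bound at their promoters, such as the serum response factor at the CArG box and CREB at the cAMP response element. FOS and JUN proteins pair through leucine zippers to form the AP-1 factor, and most transcripts of the class are short-lived. In the heart they are known for an early burst after ischaemia, pressure load or handling of the tissue.

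The DNA before FOS and IER2 is shown because they were the only members with the letters of a CArG box in the 500 bases before the gene start of the RefSeq annotation. The build is Sscrofa11.1, which the count tables also used. The FOS stretch is chr7:98449048-98449347 on the forward strand and runs from 460 to 161 bases before the annotated start, which in this gene model is the start of the coding sequence. The IER2 stretch is chr2:65912632-65912721 on the reverse strand and runs from 230 to 141 bases before the start. Capitals mark the CArG box and the 5 letters TGACG, or their reverse complement, which form the core of the cAMP response element.
FOS: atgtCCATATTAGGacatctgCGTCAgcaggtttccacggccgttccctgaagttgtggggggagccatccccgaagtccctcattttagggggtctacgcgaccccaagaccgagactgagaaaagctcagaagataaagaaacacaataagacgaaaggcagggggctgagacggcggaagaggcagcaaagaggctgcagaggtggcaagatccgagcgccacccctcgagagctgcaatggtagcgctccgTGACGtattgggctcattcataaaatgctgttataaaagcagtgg
IER2: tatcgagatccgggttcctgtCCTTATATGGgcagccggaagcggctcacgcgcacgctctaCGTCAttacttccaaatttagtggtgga

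The CArG box began 456 bases before the start of FOS and 209 bases before that of IER2. Over 20657 protein-coding genes with a window of the same length, 2.75% held a CArG box on either strand. The core TGACG stood in the windows of FOS, EGR1 and IER2 and in 29.53% of all windows. The full cAMP response element TGACGTCA, which contains that core, was in none of the 10 windows and in 1.95% of all. The AP-1 site TGACTCA was likewise in none of the 10 and in 6.07% of all, and the EGR site GCGGGGGCG was in the window of EGR1 and in 6.95% of all. These are matches of letters in a window set by the annotation, and the annotated starts of several of these genes are approximate. The coding sequence began 44154 bases after the annotated start in ATF3, 3798 in JUNB, 1497 in FOSB, 1206 in IER2 and 888 in EGR1. It began at most 591 bases after it in FOS, FOSL2, JUN and MYC, and NR4A1 had no annotated exons. A window without a match therefore does not show that the gene lacks the site.

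The libraries held between 15130210 and 31618680 counted reads, with a median of 23881185, and levels are given as counts per 1000000 reads (CPM) after scaling. The border zone library of animal 1022 stood apart from the others. Its 9 measured cardiomyocyte markers summed to 9826 CPM, against a border zone median of 38002 and 47103 to 68300 CPM in the remote zone. Its 8 fibroblast and matrix markers summed to 66593 CPM, against a border zone median of 8336 and 1025 to 2562 CPM in the remote zone, and its 8 macrophage markers to 1193 CPM against 95.3 to 187 CPM in the remote zone. At the other end, the border zone library of animal 1322 had the lowest fibroblast sum of its region at 3011 CPM and the highest cardiomyocyte sum at 53663 CPM. No marker of these lists was at 0 in every library. The border zone library of animal 3622 had the smallest total and the most genes with at least 1 count, 28024 against 20148 in the next border zone library. Because each library came from a piece of tissue, fewer cells of a type and less RNA per cell cannot be told apart.

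The first comparison asked whether the 10 genes differed between border zone and remote zone. FOSB, FOS, JUNB and EGR1 had the largest fitted differences, with log2 fold changes between 1.20 and 1.79 in favour of the border zone. JUN and NR4A1 had the smallest, at 0.04 and 0.15. No member passed the threshold of an adjusted p under 0.05 in edgeR's quasi-likelihood test (Benjamini-Hochberg over all genes), by which 287 of 13844 genes, 2.07%, were called, 2.06% as higher in the border zone. At an unadjusted p under 0.05 the count was 4 of 10 members, against 24.7% of all genes. DESeq2's Wald test called 3 of 10 members, FOS, FOSB and JUNB, and 5.73% of 30085 genes. Those 30085 were all genes with any counted read, so the share also holds genes under the filter that every member passed. EdgeR with library totals in place of TMM scaling called FOS, FOSB, JUNB and EGR1, and 11.2% of all genes. All 10 fitted differences were above 0, with a median log2 fold change of 0.76, while 53.34% of all genes were above 0 with a median of 0.04. That includes JUN and NR4A1, which turned to -0.17 and -0.26 without animal 1322. With the animal as a block, 5 of 10 members had an unadjusted p under 0.05, against 29.4% of all genes. None passed the threshold in that fit, which called 0.296% of all genes. With the block and without animal 1022, FOSB passed, and so did 6.19% of all genes.

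**Figure D1:**
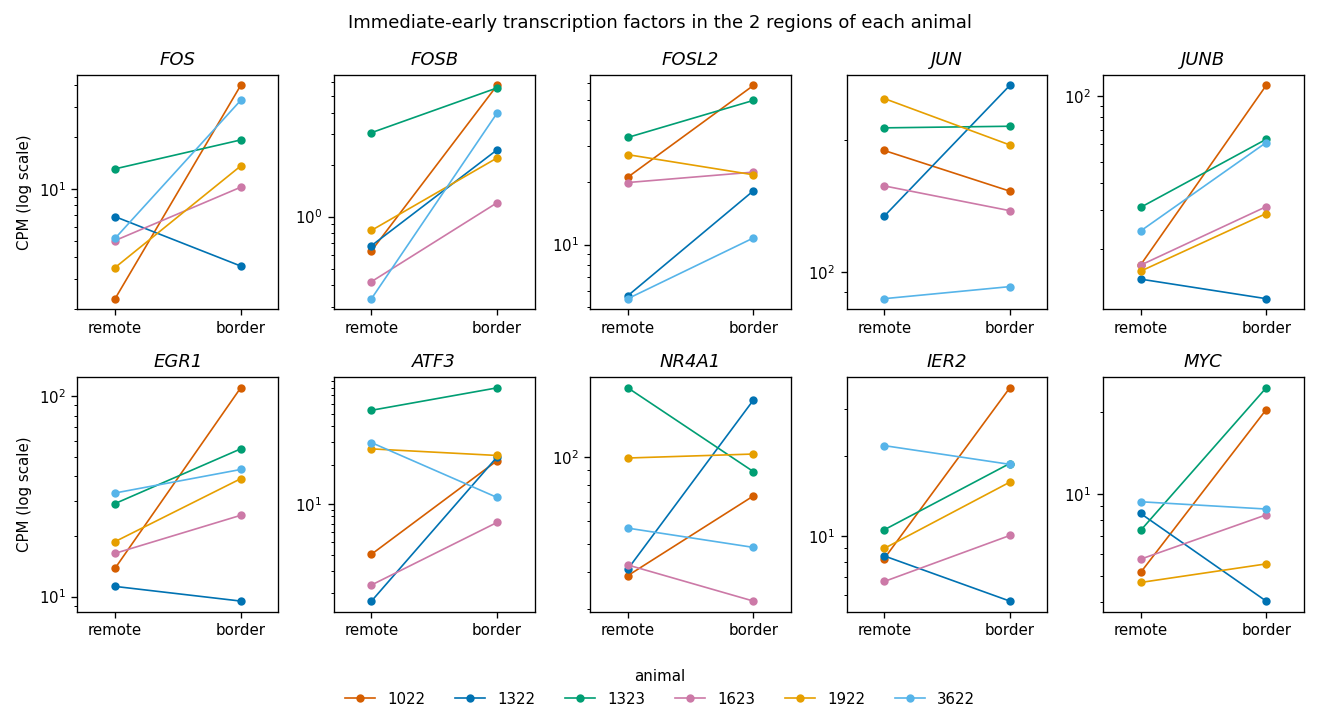
Level of each gene in CPM on a log axis in the remote zone and border zone library of each of the 6 animals, with a line joining the 2 libraries of an animal. For FOSB all 6 lines rise towards the border zone, while for JUN and NR4A1 3 of 6 do.

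The FOS family supplies the partners that JUN proteins need for strong binding at AP-1 sites. FOS, at chr7:98449508-98451971 on the forward strand, ranged from 3.56 to 39.8 CPM in the border zone with a median of 16.4, and from 2.30 to 13.0 CPM in the remote zone with a median of 5.07. The border zone was higher in 5 of 6 animals, by 4.07 on the log2 scale in animal 1022, by 2.64 in animal 3622, by 1.93 in animal 1922, by 1.02 in animal 1623 and by 0.55 in animal 1323. In animal 1322 the difference was -0.94, and the border zone library of that animal was the lowest of its region. The regions therefore overlapped. The fitted log2 fold change of FOS was 1.72 ± 0.52 (SE, n = 6 animals), with an edgeR adjusted p of 0.0859, and 1.55 ± 0.60 with an adjusted p of 0.136 when the animal was a block.

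FOSB, a close relative of FOS at chr6:51836780-51844531 on the forward strand, was the member whose difference had the same sign throughout. Its border zone level lay between 1.20 and 5.75 CPM with a median of 3.20, and its remote zone level between 0.334 and 3.06 CPM with a median of 0.656. In 6 of 6 animals the border zone held more FOSB, by between 0.84 and 3.28 on the log2 scale. It was the only member with that pattern, which 11.7% of all genes shared. The regions still overlapped, because the remote zone library of animal 1323, at 3.06 CPM, lay above 3 border zone libraries. In the libraries with the least FOSB the level rested on as few as 5 reads. The fitted log2 fold change was 1.79 ± 0.56, with an edgeR adjusted p of 0.0885, and 1.98 ± 0.40 with an adjusted p of 0.0709 with the animal as a block.

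FOSL2, also called FRA2, lacks the strong activation domain of FOS and persists longer after a stimulus. The gene lies at chr3:110820403-110842903 on the reverse strand. Its medians were close, 22.0 CPM in the border zone (10.8 to 58.5) and 20.5 CPM in the remote zone (5.48 to 32.9). The difference was above 0 in 5 of 6 animals, between 0.17 and 1.67 on the log2 scale, and was -0.32 in animal 1922. Fitted over all animals, FOSL2 differed by a log2 fold change of 0.69 ± 0.49 with an edgeR adjusted p of 0.400. With the animal as a block it was 0.75 ± 0.27, with an unadjusted p of 0.0211 and an adjusted p of 0.117. Without animal 1022 the fit with region only gave 0.43.

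JUN, the main AP-1 partner of the FOS proteins, did not share this pattern. The gene, at chr6:153686425-153687635 on the forward strand, had medians of 174 CPM in the border zone (92.8 to 266) and 173 CPM in the remote zone (87.1 to 248). It varied the least of the 10 members, with a highest library 3.05 times the lowest. The border zone was higher in 3 of 6 animals, and the fitted log2 fold change was 0.04 ± 0.28 with an edgeR adjusted p of 0.945. With the animal as a block it was 0.04 ± 0.20 with an adjusted p of 0.920. The largest difference within an animal was 0.99 on the log2 scale in animal 1322, the animal in which FOS had its lowest border zone level.

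JUNB, at chr2:66214086-66219435 on the reverse strand, pairs with FOS proteins too and is a weaker activator than JUN at many sites. It followed FOS rather than JUN. In the border zone it ranged from 11.8 to 112 CPM with a median of 46.1, and in the remote zone from 14.5 to 30.9 CPM with a median of 16.8. The border zone was higher in 5 of 6 animals, by 0.87 to 2.73 on the log2 scale, and lower by 0.30 in animal 1322. JUNB had a log2 fold change of 1.38 ± 0.42 with an edgeR adjusted p of 0.0866, and 1.09 ± 0.33 with an adjusted p of 0.0926 with the animal as a block. Without animal 1322 the adjusted p of JUNB was 0.0493, and no other member passed the threshold when that animal was left out. That fit called 3.72% of all genes.

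ATF3, a leucine zipper factor of the stress response that often represses its targets, is at chr9:130772259-130829678 on the reverse strand. It had the widest range of the members, with a highest library 45.8 times the lowest. Its border zone libraries lay between 7.14 and 79.8 CPM with a median of 22.3, and its remote zone libraries between 1.74 and 53.4 CPM with a median of 15.4. The border zone exceeded the remote zone by 3.66 on the log2 scale in animal 1322 and by 2.40 in animal 1022, while the difference was -1.41 in animal 3622. The fitted log2 fold change of 0.50 ± 0.79, edgeR adjusted p 0.735, was smaller than its error, and it was 1.06 ± 0.63 with an adjusted p of 0.279 with the animal as a block. Leaving out 1 animal moved the fit with region only between 0.29 without animal 1322 and 0.83 without animal 3622.

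**Figure D2:**
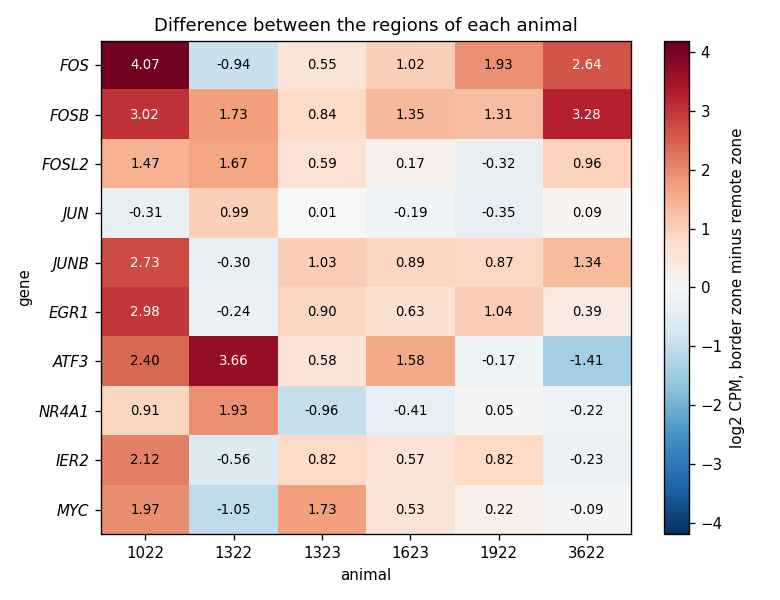
Log2 CPM in the border zone minus log2 CPM in the remote zone for each gene (rows) and animal (columns), where red is higher in the border zone and blue is lower. Animal 1022 holds the largest differences of FOS, JUNB, EGR1, IER2 and MYC, and animal 1322 has negative values for the same 5 genes beside 3.66 for ATF3 and 1.93 for NR4A1.

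EGR1, a zinc finger factor that ERK signalling and stretch switch on, is at chr2:140440829-140445302 on the forward strand. It ranged from 9.50 to 110.1 CPM in the border zone with a median of 40.9, and from 11.2 to 32.9 CPM in the remote zone with a median of 17.6. The border zone was higher in 5 of 6 animals, and the library of animal 1322 was again the exception at -0.24 on the log2 scale. The log2 fold change of EGR1 was 1.20 ± 0.46 with an edgeR adjusted p of 0.136, and 0.92 ± 0.37 with an adjusted p of 0.141 with the animal as a block. It was 0.66 without animal 1022 and 0.75 without the border zone library of that animal alone.

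NR4A1, an orphan nuclear receptor also known as NUR77, lies at chr5:17403088-17407918 on the forward strand, where the RefSeq annotation of this build calls the locus a pseudogene. Its border zone levels ran from 31.9 to 157 CPM with a median of 81.2, and its remote zone levels from 39.0 to 173 CPM with a median of 49.6. The highest of all 12 libraries was the remote zone of animal 1323, and the next was the border zone of animal 1322. Differences within animals ranged from -0.96 to 1.93 on the log2 scale, with 3 of 6 above 0. NR4A1 had a log2 fold change of 0.15 ± 0.43 with an edgeR adjusted p of 0.859, and 0.20 ± 0.36 with an adjusted p of 0.732 with the animal as a block.

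IER2, an early response protein found in the nucleus, is at chr2:65909638-65912491 on the reverse strand. Its median was 17.3 CPM in the border zone (5.70 to 36.2) and 8.71 CPM in the remote zone (6.75 to 21.9). The border zone was higher in 4 of 6 animals, and the differences of animals 1322 and 3622 were -0.56 and -0.23 on the log2 scale. The fitted log2 fold change was 0.70 ± 0.39 with an edgeR adjusted p of 0.280, and 0.60 ± 0.32 with an adjusted p of 0.245 with the animal as a block. Without animal 1022 the fit with region only gave 0.29.

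MYC, at chr4:12455141-12460360 on the reverse strand, pairs with MAX to drive growth and ribosome production. Its median was 8.59 CPM in the border zone (4.04 to 24.5) and 6.55 CPM in the remote zone (4.73 to 9.36). Only the border zone libraries of animals 1022 and 1323 lay above every remote zone library. The difference was above 0 in 4 of 6 animals and was -1.05 in animal 1322. The log2 fold change of MYC was 0.82 ± 0.40 with an edgeR adjusted p of 0.223, and 0.57 ± 0.39 with an adjusted p of 0.347 with the animal as a block. The fit with region only gave 0.44 without animal 1323 and 0.52 without animal 1022.

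**Figure D3:**
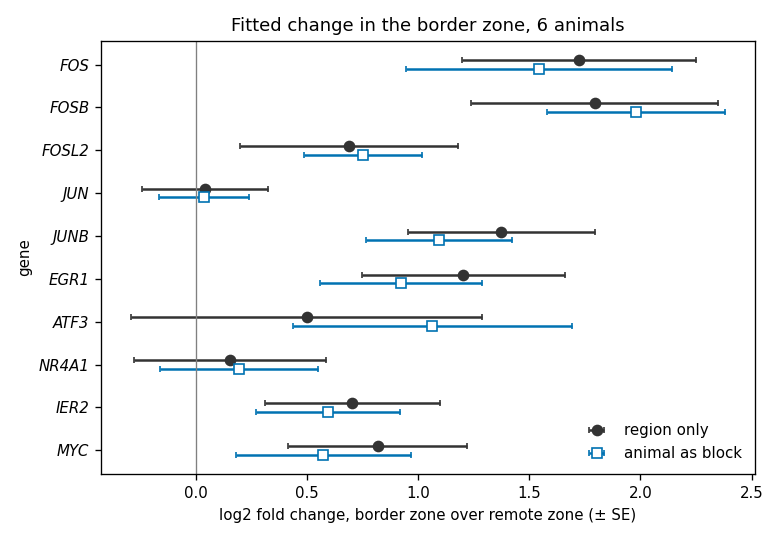
Fitted log2 fold change of the border zone over the remote zone with its SE, from the fit with region only (filled circles) and with the animal as a block (open squares), over 6 animals. FOS, FOSB, JUNB and EGR1 lie at 0.92 or above in both fits, JUN and NR4A1 near 0, and no member had an adjusted p under 0.05.

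For none of the 10 members did all 6 border zone libraries lie above all 6 remote zone libraries, a pattern that 1.99% of all genes showed. The members also varied more within a region than most genes. Their median SD of log2 CPM was 0.97 in the border zone and 0.72 in the remote zone, against 0.47 and 0.38 over all genes tested. The SD of FOS was 1.25 in the border zone and that of ATF3 2.11 in the remote zone. In the border zone, animal 1022 had the highest level of 6 members and animal 1322 the lowest of 5, FOS, JUNB, EGR1, IER2 and MYC. Those were also the libraries with the highest and lowest fibroblast and matrix sum of the region, and the part of that tissue make-up in the members' levels was not tested. Without the border zone library of animal 1022 the log2 fold changes were 1.39 for FOS, 1.59 for FOSB and 0.98 for JUNB, and no member passed the threshold.

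The second comparison asked whether the 2 regions of an animal moved together. In animal 1323 all 10 members were above the mean of the region in both libraries, and 75.0% of all genes lay on the same side of the mean in both. Its remote zone library was the highest of its region for 6 members, including FOS at 13.0 CPM, FOSB at 3.06 CPM and NR4A1 at 173 CPM. Animal 1623 lay on the same side of the mean in both regions for 9 of 10 members, against 60.5% of all genes, and none of its border zone levels and 1 of its remote zone levels was above the mean. In animal 1022 the regions parted, since 8 members were above the mean in its border zone, 2 in its remote zone, and only 2 were on the same side, against 48.6% of all genes. The counts on the same side were 5 for animal 1322 and 6 for each of animals 1922 and 3622, where 50.4%, 67.2% and 71.4% of all genes were. Over the 10 members, the deviations of the 2 regions from their means correlated with r of 0.85 in animal 1623, 0.57 in animal 1922, 0.47 in animal 1323, 0.24 in animal 3622, 0.12 in animal 1022 and -0.39 in animal 1322, as a description.

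An edgeR quasi-likelihood F test of the animal terms, with region in the model, compared the spread between animals with the spread left within them. It called 27 of 13844 genes, 0.195%, and no member. FOSL2 had the smallest p of the members, 0.00453 with an adjusted p of 0.172. Its 2 lowest animals were the same in the remote zone and the border zone, 3622 and 1322, and its 2 highest border zone libraries were those of animals 1022 and 1323. FOSB and ATF3 had an unadjusted p of 0.0389 and 0.0392, so 3 of 10 members were under 0.05, against 18.8% of all genes. FOS was at the other end with a p of 0.565. DESeq2's likelihood ratio test called FOSL2, JUN and ATF3, 3 of 10 members, and 6.90% of 30085 genes. That share again holds genes under edgeR's filter. When animal 1022 was left out, edgeR called FOSL2 and EGR1, 2 of 10 members, and 6.23% of all genes.

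Across the 6 animals the border zone level of FOSL2 followed its remote zone level with a Pearson r of 0.74 (two-sided exact permutation p = 0.104, adjusted p = 0.512) and a Spearman rho of 0.71 (exact permutation p = 0.136, adjusted p = 0.565). The smallest p that 720 orders of the animals allow was 0.00139. JUNB had an r of 0.54 (exact permutation p = 0.310, adjusted p = 0.678) and a rho of 0.83 (exact permutation p = 0.0583, adjusted p = 0.486). For FOS r was -0.35 (exact permutation p = 0.503, adjusted p = 0.797) and rho -0.37 (exact permutation p = 0.497, adjusted p = 0.812). The remaining members had r between -0.13 for MYC and 0.58 for JUN. None of the 10 had an exact p under 0.05 for r, against 10.9% of all genes, and no gene passed after adjustment. The smallest adjusted p of any gene was 0.283. With 720 orders a gene could pass only if many genes shared the smallest p, so the adjusted result decides little. The median r was 0.42 over the members and 0.38 over all genes, so the members lay close to the background.

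These relations turned on a few animals. As a description, r was also taken without the 2 animals farthest from the border zone median, picked for each gene separately. It then rests on very few animals. It was 0.77 for FOSL2, 0.96 for JUNB, 0.84 for JUN, 0.81 for EGR1, 0.73 for IER2, 0.58 for NR4A1 and 0.50 for FOSB. The sign turned for FOS, from -0.35 to 0.25, for MYC, from -0.13 to 0.03, and for ATF3, from 0.50 to -0.54. For JUN, r was -0.14 without animal 3622, whose libraries had the lowest JUN of both regions at 92.8 and 87.1 CPM. For FOS it was 0.01 without animal 1022, whose border zone library had the most FOS and whose remote zone library had the least.

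The difference between regions was also counted animal by animal. The border zone was higher for 9 of 10 members in animals 1022 and 1323, for 8 in animal 1623, for 7 in animal 1922, for 6 in animal 3622 and for 5 in animal 1322. The median difference over the members was 2.26 on the log2 scale in animal 1022 and between 0.24 and 0.71 in the other 5 animals. Over all genes the median lay between -0.04 and 0.14, and the share of genes higher in the border zone between 46.71% and 58.68%. The counts of animals 3622 and 1322 were close to their shares over all genes, 58.68% and 52.39%. In animal 1322, FOS, JUNB, EGR1, IER2 and MYC were lower in the border zone and FOSB, FOSL2, JUN, ATF3 and NR4A1 higher.

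The relations among the members over all 12 libraries are given as a description without a test. FOS, JUNB, EGR1, IER2 and MYC, grouped after their values were seen, formed 10 pairs with r of log2 CPM between 0.72 and 0.95, the highest for JUNB with EGR1 at 0.95. The 10 pairs kept r between 0.68 and 0.94 when the mean of each region was removed, and between 0.59 and 0.92 without animal 1022. Within the 6 border zone libraries the median r of these pairs was 0.95, and within the 6 remote zone libraries it was 0.60. JUN ran the other way, with r between -0.45 and -0.27 against these 5 genes over 12 libraries, and between -0.75 and -0.67 for the differences within animals. FOSB had r of 0.78 with FOS, 0.73 with JUNB, 0.62 with FOSL2 and 0.25 with JUN. ATF3 with NR4A1 had r of 0.76, JUN with NR4A1 0.64 and FOSL2 with JUN 0.62. All 45 pairs had a median r of 0.48, and 39 were above 0. For the differences within animals the median of the 45 pairs was 0.08, and 26 were above 0. Over all pairs of genes tested the median was 0.002. The libraries of an animal share that animal, and all 12 share the scaling.

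**Figure D4:**
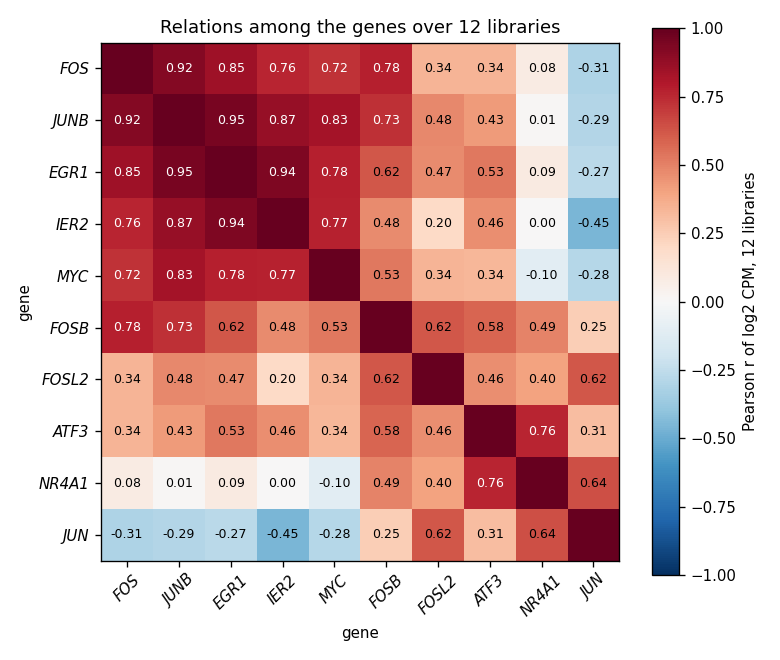
Pearson r of log2 CPM over 12 libraries for each pair of genes, where red is positive and blue negative. FOS, JUNB, EGR1, IER2 and MYC form a block with r of 0.72 or above, while JUN has r below 0 with each of them.

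The genes whose pattern over the 12 libraries was most like the mean standardised profile of the 10 members were LAMA4, SEPTIN2, TRRAP, PGAP1, DACT1, IL33, PPP1R9B, POGK, YWHAZ and FGF2. Their r with that profile ran from 0.94 for LAMA4, a laminin chain of vessel and muscle basement membranes, to 0.91 for FGF2, a growth factor for vessels and fibroblasts. Of the members themselves, FOSB was the most like the shared profile with an r of 0.88, followed by EGR1 and JUNB at 0.86, and JUN was the least like it with 0.18. The profile was highest in the border zone of animal 1022, at 1.25 standard units, and of animal 1323, at 1.11. It was lowest in the remote zone of animal 1322, at -0.87. These r are descriptions over 12 libraries, and the members are part of their own profile.

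The wider early response was described from gene lists chosen with earlier results of these data known. Of 10 other AP-1 dimer partners tested, none passed edgeR's threshold in either direction, and the median log2 fold change was 0.25. ATF7 and MAFG had the smallest p of that list, in the test between animals, with an edgeR adjusted p of 0.192 and 0.225. FOSL1, another FOS relative, stayed at or below 1.30 CPM and was not tested.

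Of 15 other immediate-early regulators none passed edgeR's threshold, with a median log2 fold change of 0.38. EGR2, a relative of EGR1, came nearest. It lay between 0.877 and 8.99 CPM in the border zone and between 0.533 and 1.74 CPM in the remote zone, and the border zone was higher in 6 of 6 animals. The log2 fold change of EGR2 was 2.21 ± 0.54, with an edgeR adjusted p of 0.0501, and 1.98 ± 0.43 with an adjusted p of 0.0746 with the animal as a block. EGR2 passed without animal 1322, with an edgeR adjusted p of 0.0424. NFIL3, a zipper repressor, differed instead between animals, with 25.3 and 25.9 CPM in the border and remote zone of animal 1323 against 6.18 to 15.4 CPM in all other libraries, and an edgeR adjusted p of 0.0884. NR4A3, a relative of NR4A1 named after its values were seen, was at 592 CPM in the remote zone of animal 1323 against a median of 35.0 CPM in that region.

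The 18 feedback inhibitors, which shut the response down, gave no edgeR call and a median log2 fold change of 0.43. DUSP4, a phosphatase of ERK, had a log2 fold change of 1.57 ± 0.41 with an edgeR adjusted p of 0.0544, and 1.37 ± 0.36 with an adjusted p of 0.0820 with the animal as a block. It passed without animal 1322, with an edgeR adjusted p of 0.0393, and without animal 1022 its log2 fold change was 1.04. BTG2, an inhibitor of proliferation, had its smallest p between animals, with an adjusted p of 0.141. Among 16 upstream kinases and factors none passed, with a median of 0.19. RPS6KA1, a kinase below ERK, was at 46.8 CPM in the border zone of animal 1022 and between 2.29 and 11.3 CPM in every other library, with a log2 fold change of 2.02 ± 0.57 and an edgeR adjusted p of 0.0704. It was 1.04 without that border zone library and 1.39 with the animal as a block. ELK4, a partner of the serum response factor, had an edgeR adjusted p of 0.141 between animals.

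Secreted and surface products of the early response had the largest median difference of these lists. Of 10 tested, TIMP1, an inhibitor of matrix proteases, was called higher in the border zone, and 9 of 10 log2 fold changes were above 0, with a median of 1.62. TIMP1 was at 4.83 to 12.7 CPM in the remote zone libraries and at 15.8 to 124.5 CPM in those of the border zone, without overlap. Its log2 fold change was 2.22 ± 0.48 with an edgeR adjusted p of 0.0338, and 1.84 ± 0.42 with an adjusted p of 0.0773 with the animal as a block. Leaving out any animal but 1322 also ended the call of TIMP1, with edgeR adjusted p between 0.0569 and 0.134, and without animal 1022 the log2 fold change was 1.45. The fibroblast and matrix markers moved the same way, with a median log2 fold change of 3.13. Of the 8, 7 were called higher in the border zone, and 1 with the animal as a block. Their part in the values of the secreted products and of the members was not tested.

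The MYC partners gave no edgeR call among 8 tested, with a median log2 fold change of 0.35. MXD4 and MXI1, which compete with MYC for MAX, had log2 fold changes of opposite sign, 0.67 ± 0.26 and -0.44 ± 0.18, with edgeR adjusted p of 0.148 and 0.157. With library totals in place of TMM scaling, where 11.2% of all genes were called, edgeR called MXD4, EGR2, DUSP4 and RPS6KA1 too. Of 14 heat shock and cell stress genes edgeR called none between regions, with a median of -0.04, and called HSPH1, a large heat shock protein, between animals. HSPH1 was at 70.9 CPM in the border zone and 54.8 CPM in the remote zone of animal 1323, against 7.36 to 29.6 CPM in the other 10 libraries, with an edgeR adjusted p of 0.0492. The call was kept without animal 1022 and lost without any other animal, with an edgeR adjusted p of 0.0552 to 0.406, the highest without animal 1323. Animal 1323 was also the one in which all 10 immediate-early members stood above the mean in both regions.

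DESeq2's Wald test, which called 5.73% of all genes, called more of these lists as higher in the border zone. That share and the 6.90% below are over all 30085 genes with any counted read. The list counts cover only genes that passed edgeR's filter, so the shares are not over a like set. The Wald test called EGR2 among the 15 regulators and 3 of 18 feedback inhibitors with DUSP4 among them. It also called RPS6KA1 among the 16 kinases and factors, and 5 of 10 secreted products. It called none of the AP-1 partners, MYC partners or heat shock genes, and none of the 7 lists held a gene called as lower. Between animals, DESeq2's likelihood ratio test, which called 6.90% of all genes, called 8 of 14 heat shock genes, 9 of 15 regulators, 6 of 10 secreted products, 5 of 18 feedback inhibitors, 3 of 16 kinases and factors, 1 of 10 AP-1 partners and 0 of 8 MYC partners. At an unadjusted p under 0.05, which 18.8% of all genes had, edgeR's test between animals counted 7, 9, 6, 7, 4, 3 and 1 genes of these lists in the same order.

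**Figure D5:**
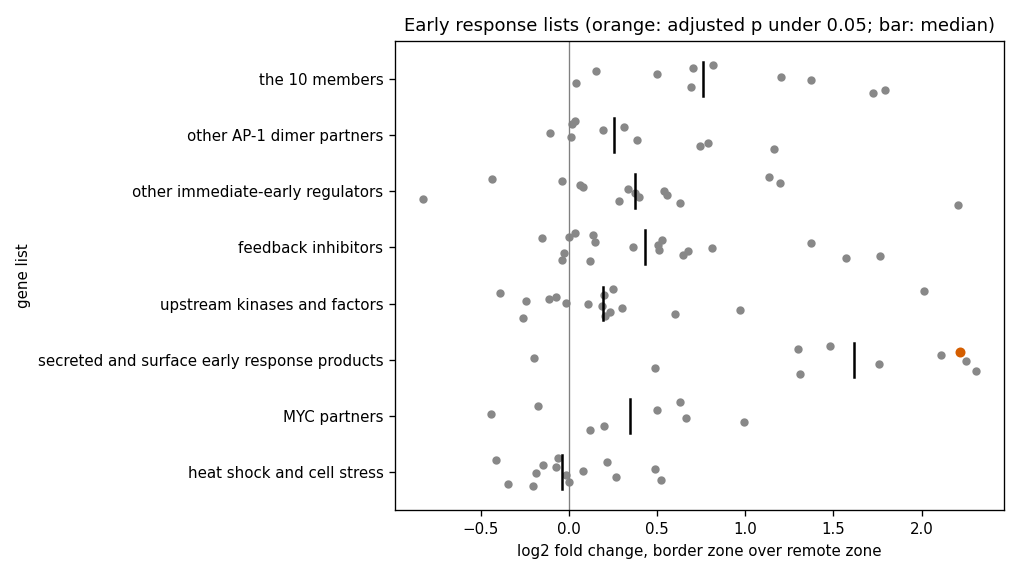
Fitted log2 fold change of the border zone over the remote zone for each tested gene (points) of the 10 members and 7 related lists, with the list median as a bar. TIMP1, in orange at 2.22, is the only gene with an edgeR adjusted p under 0.05, and the 10 members all lie above 0 with a median of 0.76.

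Among the other cell type markers, edgeR called no gene between regions. DESeq2's Wald test called as higher 4 of 8 macrophage, 4 of 8 smooth muscle and pericyte and 1 of 4 lymphocyte markers, and as lower 1 of 9 cardiomyocyte markers and 1 of 13 mitochondrial genes. The median log2 fold change was -0.51 for cardiomyocyte markers (9 tested), 1.55 for macrophage markers (8, 0.99 with the animal as a block), 1.33 for smooth muscle and pericyte markers (8), 0.16 for endothelial markers (8), 0.93 for lymphocyte markers (4) and -0.11 for red blood cell markers (2). The 13 mitochondrial protein genes had a median of -0.99, and their share of all counts was 5.69% to 17.3% in border zone libraries and 13.6% to 33.5% in remote zone libraries. The part of these differences in the members' levels was not tested.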

How the data were processed

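RNA from 12 heart samples, 6 border zone and 6 remote zone, was sequenced after poly(A) selection. The values the authors deposited are raw read counts for each Ensembl gene, made with STAR and featureCounts on Sscrofa11.1 from 150 bp paired reads. The libraries did not keep strand, so a gene and an overlapping antisense gene could not be told apart, but no member overlapped another gene in RefSeq. How reads of near-identical genes were counted is not given in the sources used here. Members and gene lists were chosen with earlier results of these data known. Counts were scaled by TMM and tested with edgeR 4.0.16 and limma 3.58.1 in R 4.3.3 (filterByExpr on region, glmQLFit robust, region as the only term, Benjamini-Hochberg). Standard errors were the ratio of the log2 change to the root of the F statistic. Log2 CPM used a prior count of 2. DESeq2 1.42.0, Python 3.11.15, NumPy 2.4.6, pandas 2.3.3 and SciPy 1.17.1 served the alternatives and permutations. The functions were run on simulated data. For the test between animals the simulated spread was set below that estimated from the real counts. That run does not show how the test performs at the spread of these libraries.

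The 2 libraries of a number come from the same animal. Their deviations from the region means correlated over all genes with r of -0.03 and 0.07 in animals 1022 and 1322 and between 0.43 and 0.57 in the others. Outside the members, list genes were named when called in an edgeR test, and otherwise the 2 with the smallest p of a list, and the 10 genes most like the members' mean profile. Nothing shows technical repeats, so each animal was 1 replicate. JUND, EGR4, MYCL, HSPA1A, MYH7, TTN, MB, HBA1 and HBA2 had no identifier in the names table used here, and IL6, CD79A, CD79B, MS4A1 and SLC4A1 were under the filter.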

Additional observations from a re-analysis of the deposited data

How the results depend on the processing

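Between border zone and remote zone, 287 genes and no member were called. With the animal as a replicate block 41 genes were called, 34 of them shared, and no member. DESeq2's Wald test called 1724 genes and 3 members (FOS, FOSB and JUNB), and scaling by library totals 1551 genes and 4 members (FOS, FOSB, JUNB and EGR1), which shifted the all-gene median from 0.04 to 0.32 (log2). No filter gave 139 genes and at least 10 counts in every library 149. Leaving out animals, alone or with the block, gave 0 to 856 genes and 0 to 1 members, JUNB without animal 1322 or FOSB with the block and without animal 1022. Without animal 1623 or animal 3622 no gene was called by edgeR, with 2662 and 2448 genes at an unadjusted p under 0.05. Without the border zone library of animal 3622, 156 genes were called. The settings with the block and an animal left out, and those without a single border zone library, were chosen after seeing the data.

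Between animals, 27 genes and no member were called. DESeq2's likelihood ratio test called 2076 genes and 3 members, no filter 123 genes, and at least 10 counts in every library 2. Leaving out an animal gave 0 to 861 genes and 0 to 2 members, both highest without animal 1022. Leaving out 1 animal, with or without the block, or 1 border zone library reversed the log2 fold change of JUN (-0.17 to 0.17) and NR4A1 (-0.26 to 0.53). Leaving out 1 animal reversed r between the regions for FOS (-0.72 to 0.0064), MYC (-0.48 to 0.19), EGR1 (-0.21 to 0.90), NR4A1 (-0.0157 to 0.66) and JUN (-0.14 to 0.95). Library totals turned r of MYC to 0.0509. Without the filter the adjusted p of TIMP1 was 0.0715, and with library totals that of HSPH1 was 0.0691. Of the 209 alternatives for the members' log2 fold changes, 195 kept the direction and the side of the threshold. Of 100 for r, 93 kept the sign and 7 reversed it. For r the side of the threshold says little, since the smallest adjusted p of any gene in the main setting was 0.283 (exact permutation). The cause of the changes across these alternatives was not tested. FOSB, with as few as 5 reads in a library, is the member that depth limits most.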
